A study of Mus musculus with 9 samples.

Results

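AMP-activated protein kinase (AMPK) is a kinase of 3 kinds of subunit, and the genes described here are those of its subunits and of the proteins that switch it on. The α subunit carries the kinase domain, the β subunit is a scaffold that binds glycogen, and the γ subunit binds AMP, ADP and ATP and so senses the energy state of the cell. AMPK is switched on when a kinase upstream of it, mainly LKB1 (gene Stk11) or the calcium-dependent CaMKK2, phosphorylates its α subunit. LKB1 works in a complex with a STRAD protein and MO25, which is the product of Cab39. In fat cells and their precursors, active AMPK is known to restrain fatty acid and cholesterol synthesis and to favour fuel uptake and oxidation. This activity is set by phosphorylation, which arrays of RNA do not measure.

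The 10 genes were chosen by name, with earlier results of these data known: Prkaa1, Prkaa2, Prkab1, Prkab2, Prkag1, Prkag2, Prkag3, Stk11, Camkk2 and Cab39. They were found by the gene name, or a synonym of it, printed for each gene probe in the scanner files of replicate 1. All 10 genes were present, with 16 probes in all, among 27617 gene names on the array. The filter asked that a probe be well above background on every array of some group. It left 14 probes from 9 genes, of which 13 were above background on all 9 arrays. The probe that passed through 1 group only was that of Prkaa2. The 2 probes that did not pass were the only probe of Prkag3 and 1 of the 2 probes of Prkag2.

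RNA was measured on 9 one-colour arrays, 3 from each of 3 groups of 3T3-L1 cells. This mouse line grows as fibroblasts, can become adipocytes, and is called preadipocytes in the labels. The groups were cells given X-1 at 70 µM for 24 h, cells given X-3 at 70 µM for 24 h, and control cells. All cells had first been kept in medium with 10% fetal bovine serum and then without serum for 48 h, so the controls were serum-starved as well. X-1 and X-3 are code names of mangiferin derivatives, and their structures are not given in the sources used here. The series design speaks of 9 independent experiments, and the labels name no differentiation step.

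A level below is the log2 of a probe's intensity minus the array's 75th percentile over gene probes, so that 0 is the brightness of that percentile. Probes bind with different strength, so levels are compared between arrays at 1 probe and never between probes. A difference is the level in the first-named group minus that in the second, with its standard error from a limma fit to all 9 arrays. A probe was called changed where its p-value, adjusted by the Benjamini-Hochberg method over all 25288 probes that passed, was under 0.05. Each group had 3 arrays, and their number limits the precision.

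Same-numbered arrays lay on 1 slide, with X-1 always in position 2, X-3 in position 3 and control in position 1. The effect of position therefore cannot be told apart from that of the group. Between 57.7% and 67.1% of gene probes were well above background on an array, and 0 gene spots were saturated. The X-3 array of replicate 1 stood apart from the other X-3 arrays on the second principal component, at −98.5 against 29.4 and 25.3. Slide 1 and the other slides were scanned on different days. All 9 fibroblast and preadipocyte markers were well above background on all arrays, from Dlk1 and the collagens to Ly6a. Some of them differed from control, in both directions. The mean level of Ly6a was 3.36 in X-1, 3.56 in X-3 and −0.03 in control cells. In the same order Pdgfra was at 3.30, 3.32 and 4.66, Pdgfrb at 4.42, 4.63 and 5.84, and Thy1 at 4.99, 4.98 and 5.82. Of the mature adipocyte markers 1 of 7, Lipe, was above background on all arrays, while Adipoq was above it on 1 X-1, 2 X-3 and 0 control arrays and Lep on none. A summed level here is the log2 of the markers' unlogged levels added up, so the brightest probes weigh most in it. The summed adipocyte marker level was between −1.42 and −0.86 in X-1 cells, between −1.26 and −0.97 in X-3 cells and between −2.16 and −1.66 in control cells. Lipe weighed most in this sum, with mean levels of −1.42, −1.42 and −2.04 in X-1, X-3 and control cells. The macrophage markers Ptprc, Adgre1 and Itgam were above background on at most 1 array of any group, and 2 of 5 macrophage markers, Cd68 and Csf1r, on all arrays. Their summed level was between −0.79 and −0.71 in X-1 cells, between −0.64 and −0.50 in X-3 cells and between −1.80 and −1.65 in control cells. The muscle marker sum was between −2.24 and −1.55 in X-1 cells, between −1.89 and −1.05 in X-3 cells and between −0.84 and 0.03 in control cells, with 3 of 5 markers above background on all arrays and Ckm and Myog on none. The endothelial sum was between −4.42 and −4.37 in X-1 cells, between −4.40 and −4.37 in X-3 cells and between −4.40 and −4.01 in control cells, with 1 of 4 markers, Tek, above background on all arrays. The part these markers have in the results below was not tested. In bulk RNA fewer cells of a type and less RNA per cell cannot be told apart.

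Probes of 1 gene are numbered from the brightest. Where a gene has several probes, they bind at different places in its transcript. Prkab2, probe 2 of Prkag1 and the probes of Prkaa1 and Cab39 are given here by their bases as printed in the deposited scanner files, 5′ to 3′. The mm9 coordinates are from the same files. Prkag1 probe 1 is compared with probe 2 below, but its bases are not shown. Each probe is 60 bases long, and the first 30 are shown for probes placed past the coding part of the transcript. No annotation of mm9 was used here, so a place in or past the coding part is read from the probe's transcript position and the known size of the protein, and the coding ends were not checked. In the line of Cab39 probe 1, capitals mark AATAAA, a hexamer known as the commonest polyadenylation signal.
Prkaa1 probe 1, chr15:5131426-5131485, plus strand: atttctcatgaaaggaacttttctaccaag
Prkaa1 probe 2, chr15:5127150-5128691, plus strand: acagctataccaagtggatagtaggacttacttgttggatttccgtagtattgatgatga
Prkab2, chr3:97476843-97476902, plus strand: cagactccagttactcatgaatatgagacc
Prkag1 probe 2, chr15:98644986-98645045, minus strand: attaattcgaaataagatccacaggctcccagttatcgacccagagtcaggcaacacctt
Cab39 probe 1, chr1:87746256-87746315, plus strand: ggggaggataaagttggtgtgcaAATAAAt
Cab39 probe 2, chr1:87746562-87746621, plus strand: gtacagcagaggaatgttattgtagtagta
Cab39 probe 3, chr1:87747374-87747433, plus strand: ggttttaaggtttccttcaaggaatacaag

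AATAAA was found on the probe's own strand in 1 of the 16 member probes, starting at base 24 of Cab39 probe 1, and in 4.77% of all 40960 gene probes. The variant ATTAAA was found in 0 of the 16 and in 2.9% of all gene probes. These matches are a description of the letters in the probes.

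Against control, the β2 subunit gene Prkab2 and 1 probe each of Prkaa1 and Cab39 were called higher with both compounds. The other Prkaa1 probe was called lower with both, and another Cab39 probe was called lower with X-3. Both probes of Prkag1 and of Camkk2 were lower with both compounds. Probe 1 of Prkag1 was not called with X-3, and probe 1 of Camkk2 was not called with X-1. With X-1, 8 of 14 member probes were called, 4 higher and 4 lower. Of all probes tested 54.8% were called in this comparison, 28.1% higher and 26.7% lower, so the members' share of 57.1% was near that of the array. With X-3, 9 of 14 were called, 4 higher and 5 lower, a share of 64.3% beside 54.1% of all probes, of which 28.5% were called higher and 25.5% lower. Between the compounds 2 of 14 were called, 1 higher in X-1 than in X-3 cells and 1 lower, a share of 14.3% beside 9.07% of all probes, 3.33% higher and 5.74% lower. Under spike-in scaling of replicates 2 and 3 the calls were 2 higher and 8 lower with X-1 and 3 higher and 8 lower with X-3. The whole array shifted likewise. Of 25288 probes, 2428 were then called higher and 15056 lower with X-1, and 3108 and 12209 with X-3. Over the 13 probes above background on all arrays, which leave out Prkaa2, the counts were 7, 9 and 2. Of all 22100 probes above background on all arrays, 54.8%, 54.2% and 9.31% were called in the same comparisons. The median difference of the 14 probes was 0.22 with X-1, −0.19 with X-3 and 0.18 between X-1 and X-3, beside 0.09, 0.06 and 0.01 over all probes. The arrays of the compared groups did not overlap at 10, 10 and 5 of the 14 probes, against 68%, 60.8% and 30.6% of all probes. Both comparisons with control share the same 3 control arrays.

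**Figure D1:**
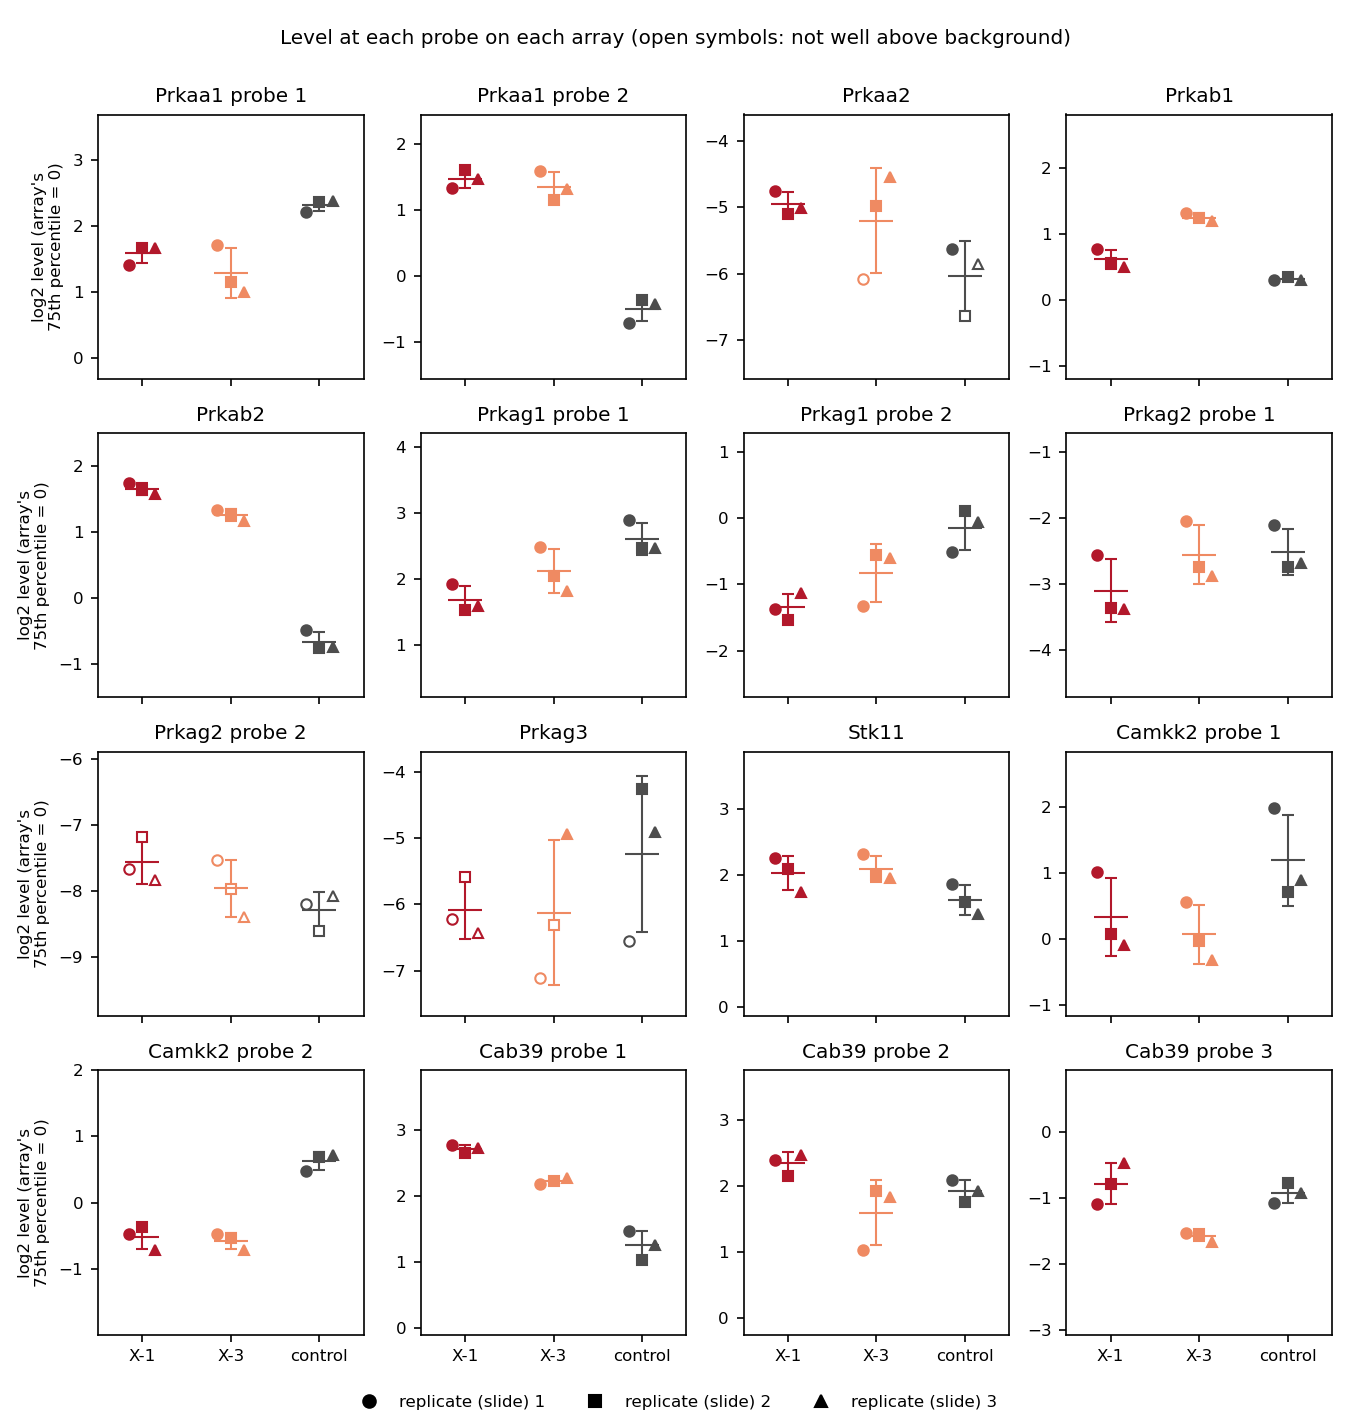
Log2 level of each of the 16 probes (y axis, 0 = the array's 75th percentile; each panel has its own range) on the 3 X-1, 3 X-3 and 3 control arrays, with mean and SD as bars and the symbol giving the replicate, which is also the slide. At Prkaa1 probe 2 and at Prkab2 all 6 treated arrays lie above all 3 control arrays, and at Prkaa1 probe 1 all 6 lie below them.

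Of the catalytic subunits, Prkaa1 encodes α1, the form found in most tissues, and its 2 probes moved in opposite directions with both compounds. Probe 1 binds from base 4181 of the transcript and is placed past its coding part. Its level was 1.41, 1.67 and 1.66 on the X-1 arrays of replicates 1, 2 and 3, it was 1.71, 1.15 and 1.00 on the X-3 arrays, and it was 2.21, 2.36 and 2.37 on the control arrays. All treated arrays were below all control arrays. The probe fell by 0.73 ± 0.19 with X-1 (SE, adjusted p = 0.0097) and by 1.03 ± 0.19 with X-3 (adjusted p = 0.0017).

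Probe 2 of Prkaa1 binds from base 1387 and is placed in the coding part, and its genomic interval skips 1482 bases, so it lies across a splice junction. Its level was 1.32, 1.60 and 1.47 on X-1 arrays, 1.58, 1.14 and 1.32 on X-3 arrays, and −0.72, −0.37 and −0.43 on control arrays. Here every treated array was above every control array. The probe rose by 1.97 ± 0.16 with X-1 (adjusted p = 1.25e-05), which is 3.92-fold, and by 1.86 ± 0.16 with X-3 (adjusted p = 2.12e-05), which is 3.62-fold. Within slides 1, 2 and 3 the X-1 differences were 2.04, 1.97 and 1.90 and the X-3 differences 2.30, 1.52 and 1.75. Under spike-in scaling of replicates 2 and 3 both probes kept their directions and calls, with −1.62 at probe 1 and 1.02 at probe 2 for X-1, and 0.93 at probe 2 for X-3.

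The gap between the Prkaa1 probes, probe 1 minus probe 2 on the same array, needs no scaling between arrays. It lay between 0.07 and 0.19 on X-1 arrays, between −0.32 and 0.12 on X-3 arrays and between 2.73 and 2.93 on control arrays. The change in the gap was −2.70 with X-1 and −2.89 with X-3, and each gave an exact two-sided permutation p of 0.1, the smallest that 3 arrays against 3 can give. Because the probes disagree, no single direction is given for Prkaa1. The mean of both probes differed from control by 0.62 with X-1 (adjusted p = 0.0104) and by 0.41 with X-3 (adjusted p = 0.0579). Among the 5918 genes on the array with 2 or more probes that passed, 9.72% had probes called in both directions with X-1 and 11% with X-3. Between the compounds neither probe was called, with X-1 minus X-3 differences of 0.30 (95% CI −0.13 to 0.73) at probe 1 and 0.11 (95% CI −0.25 to 0.48) at probe 2. Without the X-3 array of replicate 1, the difference at probe 1 was 0.51 and was called (adjusted p = 0.0318).

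Prkaa2, the gene of the α2 subunit that is best known from muscle, was dim. Its level was −4.74, −5.11 and −5.00 on X-1 arrays, −6.08, −4.97 and −4.54 on X-3 arrays, and −5.63, −6.64 and −5.86 on control arrays. It was well above background on all 3 X-1 arrays, on 2 X-3 arrays and on 1 control array. The X-1 difference of 1.09 ± 0.39 was called (adjusted p = 0.0417), but the probe passed the filter only through the X-1 group. Its adjusted p rests partly on control values below background, so it gives no support to a difference. The call was lost without the filter (adjusted p = 0.0753), with quantile scaling (adjusted p = 0.0621) and with the deposited scores (adjusted p = 0.0606). It was also lost with slide as a block (adjusted p = 0.0566). Leaving out any 1 array other than X-3 replicate 1, X-3 replicate 3 or control replicate 1 lost it too. Over all 9 omissions the difference lay between 0.79 and 1.30. With normexp background correction the difference was 0.25 and with spike-in scaling 0.28, neither called. The X-3 difference was 0.85 ± 0.39 (adjusted p = 0.0995), and without the X-3 array of replicate 1 it was 1.29 and called (adjusted p = 0.00527). Between the compounds the difference was 0.25 (95% CI −0.65 to 1.14).

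Of the scaffold subunits, Prkab2, which encodes β2, had the largest called difference of the members with either compound. Its single probe binds from base 4113 of the transcript. The level was 1.75, 1.65 and 1.57 on X-1 arrays, 1.34, 1.27 and 1.17 on X-3 arrays, and −0.48, −0.75 and −0.74 on control arrays. The 3 groups did not overlap, with X-1 highest and control lowest. Prkab2 rose by 2.31 ± 0.13 with X-1 (adjusted p = 1.52e-06), or 4.97-fold, and by 1.92 ± 0.13 with X-3 (adjusted p = 4.96e-06), or 3.77-fold. Within the slides the X-1 difference was between 2.23 and 2.40 and the X-3 difference between 1.82 and 2.02. Under spike-in scaling of replicates 2 and 3 these differences were 1.43 and 1.26, both still called. Some member probes then differed more, such as Camkk2 probe 2, at −2.18 with X-1 and −2.04 with X-3. The difference between the compounds was 0.40 ± 0.13 (95% CI 0.11 to 0.68) and was not called (adjusted p = 0.0856). It was called without the X-3 array of replicate 1, at 0.44 (adjusted p = 0.0488).

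The named genes whose levels over the 9 arrays were most like those of Prkab2, by root mean square distance after centring each gene, were Gdf15, Lrp6 and Tlcd3a. Their distances were 0.11, 0.123 and 0.125 log2 units among 13558 genes compared. Because they were picked for likeness to Prkab2 on these same arrays, their differences from control are near its own by selection. Gdf15 encodes a secreted stress-responsive factor, and its difference from control was 2.17 with X-1 and 1.90 with X-3. Lrp6, a Wnt co-receptor, had differences of 2.27 and 1.91 with X-1 and X-3. Tlcd3a had differences of 2.29 and 1.74.

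Prkab1, which encodes β1, was called between the compounds, though not under all settings. Its level was 0.78, 0.57 and 0.51 on X-1 arrays, 1.32, 1.24 and 1.20 on X-3 arrays, and 0.30, 0.36 and 0.31 on control arrays. The groups did not overlap, and X-3 was highest. Prkab1 rose by 0.93 ± 0.12 with X-3 (adjusted p = 0.000187). The X-1 difference of 0.29 ± 0.12 was not called (adjusted p = 0.0592), but it was called without the X-3 array of replicate 1 (adjusted p = 0.0366). X-1 cells were lower than X-3 cells by a difference of −0.63 ± 0.12 (95% CI −0.90 to −0.37, adjusted p = 0.0159), with −0.55, −0.67 and −0.69 within the slides. That call between the compounds was lost without any 1 of X-1 replicate 2 or 3 and X-3 replicate 2 or 3, where the difference stayed between −0.66 and −0.58. It was also lost under median scaling (adjusted p = 0.0887) and without the filter (adjusted p = 0.0623). Under spike-in scaling the X-3 difference from control was 0.18 and not called, and the X-1 difference was −0.71, with its sign turned and called lower (adjusted p = 0.0277).

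**Figure D2:**
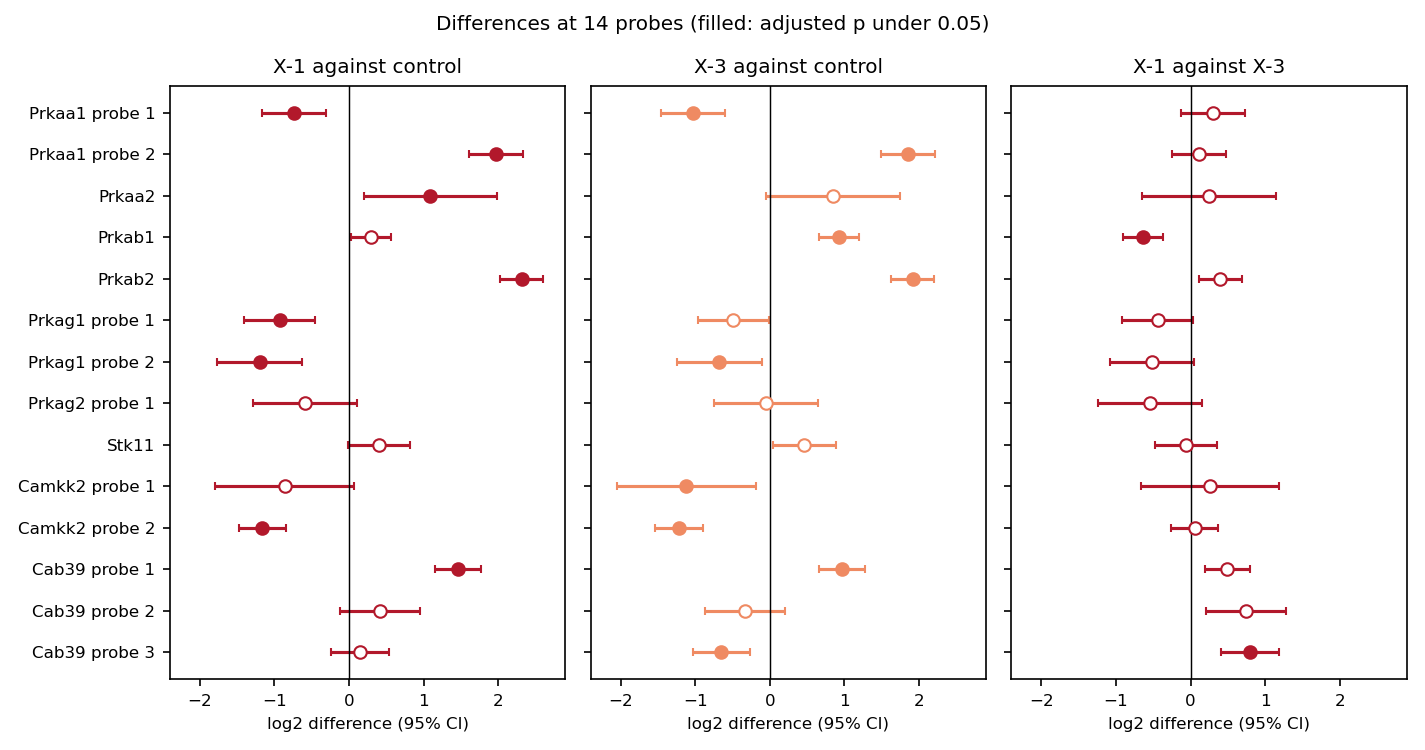
Log2 differences with 95% confidence intervals (x axis) for the 14 probes that passed the filter, for X-1 against control, X-3 against control and X-1 against X-3. Filled points had an adjusted p under 0.05: 8, 9 and 2 of 14, with Prkab2 farthest to the right in both comparisons with control.

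Of the nucleotide-sensing subunits, Prkag1, which encodes γ1, the γ form found in most tissues, was lower at both probes. At probe 1, placed past the coding part, the level was 1.92, 1.53 and 1.59 on X-1 arrays, 2.49, 2.06 and 1.82 on X-3 arrays, and 2.89, 2.47 and 2.47 on control arrays. At probe 2, placed in the coding part, it was −1.37, −1.54 and −1.13 on X-1 arrays, −1.33, −0.55 and −0.59 on X-3 arrays, and −0.51, 0.12 and −0.06 on control arrays. At both probes all X-1 arrays were below all control arrays, while the X-3 arrays overlapped the control arrays at probe 1 and not at probe 2.

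With X-1, Prkag1 fell by 0.93 ± 0.21 at probe 1 (adjusted p = 0.00469) and by 1.20 ± 0.25 at probe 2 (adjusted p = 0.00319). With X-3, the difference at probe 1 was −0.49 ± 0.21 and not called (adjusted p = 0.076), although it was called with slide as a block (adjusted p = 0.012) and without the X-3 array of replicate 1, at −0.67 (adjusted p = 0.0131). Probe 2 fell by 0.68 ± 0.25 with X-3 (adjusted p = 0.0461). This call was lost without any 1 of the 3 X-1 arrays, X-3 replicate 1 or control replicate 2 or 3, and the difference without X-3 replicate 1 was −0.42. Between the compounds the differences were −0.44 (95% CI −0.91 to 0.03) and −0.52 (95% CI −1.09 to 0.05) at probes 1 and 2, neither called. The mean of both probes was called in all 3 comparisons, at −1.06 with X-1 (adjusted p = 6.79e-05), −0.58 with X-3 (adjusted p = 0.00267) and −0.48 between X-1 and X-3 (adjusted p = 0.0336). At probe 2 the difference was −0.77 and called without the X-3 array of replicate 1 (adjusted p = 0.0336).

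Prkag2, which encodes γ2, was measured at probe 1. Its level was −2.56, −3.37 and −3.38 on X-1 arrays, −2.05, −2.74 and −2.89 on X-3 arrays, and −2.11, −2.75 and −2.68 on control arrays. The groups overlapped, and slide 1 was the brightest in each. The difference was −0.59 ± 0.31 with X-1 (adjusted p = 0.134) and −0.047 ± 0.31 with X-3 (adjusted p = 0.909). With slide as a block the X-1 difference was called (adjusted p = 0.00475), and so was the difference of −0.54 between X-1 and X-3 (adjusted p = 0.0402). Without the X-1 array of replicate 1 the X-1 difference from control was −0.86 (adjusted p = 0.0398). Prkag2 probe 2 was not well above background on any array. Prkag3, the γ3 gene known from skeletal muscle, was above background on 0 X-1, 1 X-3 and 2 control arrays and was not tested. Its level was −6.22, −5.58 and −6.44 on X-1 arrays, −7.12, −6.31 and −4.94 on X-3 arrays, and −6.55, −4.26 and −4.90 on control arrays, and the groups overlapped.

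Of the upstream kinases, Stk11, which encodes LKB1, had no called difference. Its level was 2.25, 2.09 and 1.74 on X-1 arrays, 2.31, 1.99 and 1.95 on X-3 arrays, and 1.85, 1.59 and 1.41 on control arrays. X-1 arrays overlapped control arrays and X-3 arrays did not. The difference was 0.41 ± 0.18 with X-1 (adjusted p = 0.0913) and 0.46 ± 0.18 with X-3 (adjusted p = 0.0597), and positive within each slide. With slide as a block both were called (adjusted p = 0.0207 and 0.0126). The X-1 difference was called without the X-1 array of replicate 3, and the X-3 difference without the control array of replicate 1. Under spike-in scaling the signs turned, to −0.51 and −0.23. Between the compounds the difference was −0.058 (95% CI −0.48 to 0.36).

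Camkk2, which encodes the calcium-dependent kinase upstream of AMPK, was lower with both compounds. At probe 2 the level was −0.48, −0.37 and −0.72 on X-1 arrays, −0.48, −0.54 and −0.71 on X-3 arrays, and 0.48, 0.69 and 0.73 on control arrays. All treated arrays were below all control arrays. The probe fell by 1.16 ± 0.14 with X-1 (adjusted p = 0.000135) and by 1.21 ± 0.14 with X-3 (adjusted p = 0.000119), more than 2-fold each. The difference between the compounds was 0.054 (95% CI −0.27 to 0.37).

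Camkk2 probe 1 spread more between replicates. Its level was 1.01, 0.07 and −0.08 on X-1 arrays, 0.56, −0.03 and −0.31 on X-3 arrays, and 1.98, 0.71 and 0.89 on control arrays. Slide 1 was the brightest in each group, and the X-1 arrays overlapped the control arrays. The X-1 difference was −0.86 ± 0.41 and not called (adjusted p = 0.106), but it was called with slide as a block (adjusted p = 0.00289) and without the X-1 array of replicate 1, at −1.20 (adjusted p = 0.0408). Without the control array of replicate 1 it was −0.47. Probe 1 fell by 1.12 ± 0.41 with X-3 (adjusted p = 0.0447), a call that was lost without any 1 of X-1 replicate 2 or 3, X-3 replicate 2 or 3 and control replicate 1 or 3. Without control replicate 1 the X-3 difference was −0.73.

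Cab39, whose product MO25 holds LKB1 in its active form, was measured at 3 probes, and the compounds differed from each other and from control by probe. Probe 1 binds from base 1903, probe 2 from base 2209 and probe 3 from base 3021 of the transcript. At probe 1 the level was 2.77, 2.66 and 2.73 on X-1 arrays, 2.18, 2.24 and 2.27 on X-3 arrays, and 1.47, 1.04 and 1.27 on control arrays. The 3 groups did not overlap. Probe 1 rose by 1.46 ± 0.13 with X-1 (adjusted p = 2.49e-05) and by 0.97 ± 0.13 with X-3 (adjusted p = 0.00033). Under spike-in scaling these differences were 0.62 and 0.40 and neither was called.

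At Cab39 probe 2 the level was 2.40, 2.16 and 2.48 on X-1 arrays, 1.03, 1.93 and 1.83 on X-3 arrays, and 2.09, 1.77 and 1.94 on control arrays. The X-3 array of replicate 1 was the lowest of the 9. The difference was 0.42 ± 0.24 with X-1 (adjusted p = 0.166) and −0.33 ± 0.24 with X-3 (adjusted p = 0.263). Without the X-3 array of replicate 1, the X-1 difference was called (adjusted p = 0.022) and the X-3 difference was −0.050. The sign of the X-1 difference turned under spike-in scaling, to −0.45.

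At Cab39 probe 3 the level was −1.09, −0.79 and −0.48 on X-1 arrays, −1.53, −1.55 and −1.67 on X-3 arrays, and −1.09, −0.78 and −0.93 on control arrays. X-3 arrays were below all others, and X-1 arrays overlapped control arrays. Probe 3 fell by 0.65 ± 0.17 with X-3 (adjusted p = 0.0108). The X-1 difference was 0.15 ± 0.17 (adjusted p = 0.486), with its sign turned under median scaling and spike-in scaling, at −0.055 and −0.70.

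The gap between Cab39 probe 1 and probe 3 lay between 3.71 and 3.94 on X-3 arrays and between 1.82 and 2.56 on control arrays. The change with X-3 was 1.62, and that of the gap between probes 1 and 2 was 1.30. With X-1 the changes were 1.32 and 1.05. Each of these 4 had an exact two-sided permutation p of 0.1, the smallest possible here. The mean of the 3 probes differed from control by 0.68 with X-1 (adjusted p = 0.00168) and by −0.0030 with X-3 (adjusted p = 0.987).

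X-1 was above X-3 at all 3 Cab39 probes, with no overlap of the arrays. The difference was 0.49 (95% CI 0.19 to 0.80, adjusted p = 0.0549) at probe 1, 0.75 (95% CI 0.21 to 1.28, adjusted p = 0.0845) at probe 2 and 0.80 (95% CI 0.41 to 1.18, adjusted p = 0.0255) at probe 3, where it was called. The mean of the 3 probes was called, at 0.68 (adjusted p = 0.014). Probe 1 was called without the control array of replicate 1 (adjusted p = 0.0418). Without the X-3 array of replicate 1 the difference at probe 2 was 0.46. The call at probe 3 was lost without any 1 of X-1 replicate 2 or 3, X-3 replicate 2 or 3 and control replicate 3, with differences between 0.64 and 0.81 in those fits. It was also lost under median scaling (adjusted p = 0.0879) and without the filter (adjusted p = 0.0764).

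**Figure D3:**
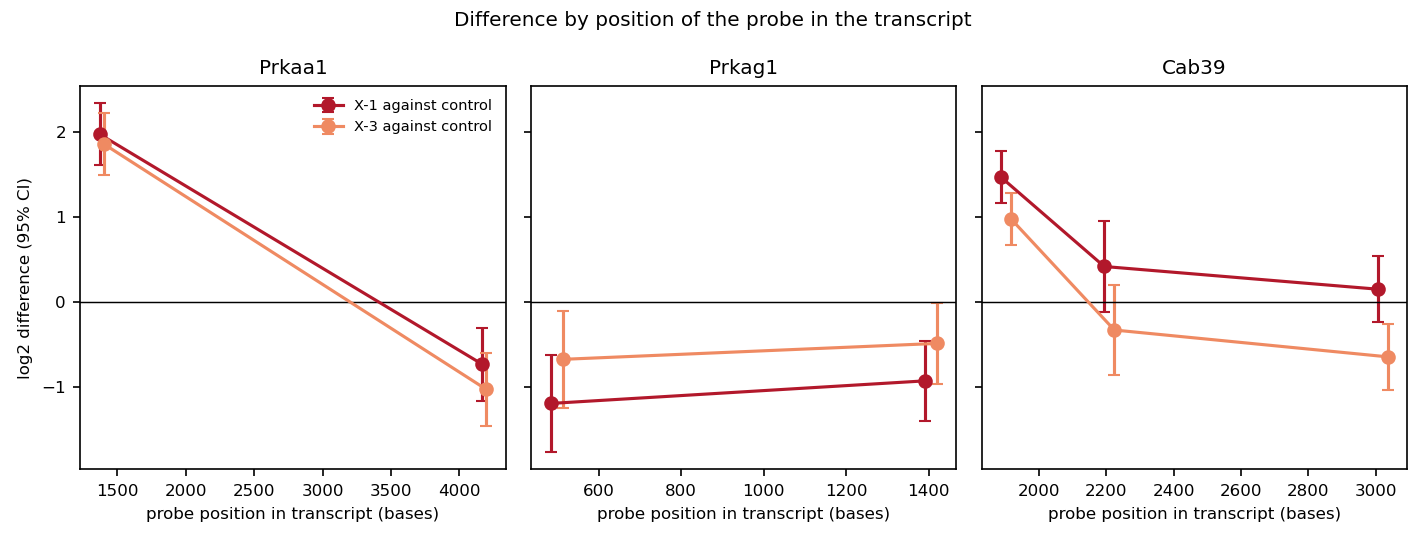
Log2 difference from control with 95% confidence intervals (y axis) against the first base of the probe in the transcript (x axis), for the genes with 2 or more tested probes on 1 transcript record, X-1 and X-3 apart; lines join the probes of a gene. In Prkaa1 the probe nearer the start is higher than control and the other lower, in Prkag1 both are lower, and in Cab39 the difference is largest at the first of the 3 probes.

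X-1 and X-3 were given at the same dose and time, so the 14 probes allow 14 direct comparisons, with p-values adjusted over all 25288 probes. The called ones were Prkab1, lower in X-1 than in X-3 cells, and Cab39 probe 3, higher in X-1 than in X-3 cells. The other 12 were not called, and their intervals reached from −1.24 at Prkag2 to 1.28 at Cab39 probe 2, so differences of 2-fold are not excluded for some of these probes. The count of called probes was 5 without the X-3 array of replicate 1 and 0 without X-1 replicate 2, X-1 replicate 3, X-3 replicate 2 or X-3 replicate 3. Without control replicate 3 it was 1. Among all 25288 probes, 4923 were called without X-3 replicate 1 and 1266 without control replicate 3. The calls were 500 and 584 without X-1 replicates 2 and 3, and 745 and 799 without X-3 replicates 2 and 3.

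Around these genes lie the partners, targets and regulators of AMPK, taken as 9 lists of 108 genes in all. Of these, 99 were measured, each at its brightest probe. The lists were chosen with earlier results of these data known, so their called shares are a description and not a test. With X-1, 32 rose and 37 fell, a called share of 69.7%, beside 55.4% of all 16736 genes, 27.5% called higher and 27.9% lower. With X-3, 33 rose and 32 fell, or 65.7%, beside 54.4% of all genes, 28.3% higher and 26% lower. These splits depended on the scaling, and so did those of the whole array. Under median scaling 22 rose and 38 fell with X-1 and 21 and 37 with X-3. Among all 25288 probes, 5088 were then called higher and 7488 lower with X-1, and 4878 and 7369 with X-3. Under spike-in scaling of replicates 2 and 3, 11 rose and 55 fell with X-1 and 17 and 55 with X-3. Among all probes, 2428 were then called higher and 15056 lower with X-1, and 3108 and 12209 with X-3. The median difference of the listed genes was 0.07 with X-1 and 0.02 with X-3, beside 0.06 and 0.05 over all genes. Of the 54 listed genes with several probes that passed, 23 had probes of opposite sign with X-1 and 29 with X-3. Among all 5918 genes with several such probes, 33.3% and 38.8% had them. These counts include probes that were not called. The direction of the listed genes with probes of opposite sign depends on the probe.

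Partners of LKB1 and the other AMPK kinases were mostly lower. With X-1, 1 of 9 rose and 7 fell, with a median difference of −0.87, and with X-3, 0 rose and 6 fell, with a median of −0.60. Under median and spike-in scaling 0 rose with either compound, but both scalings shifted the whole array downward, as given above. Tab1, which activates the kinase TAK1, fell by 1.85 ± 0.18 with X-1 (adjusted p = 3.03e-05) and by 1.61 ± 0.18 with X-3. Cab39l, the close relative of Cab39, fell by 1.61 ± 0.14 and 1.57 ± 0.14 at its brightest probe, and its other probes were lower too. Calm3, 1 of the calmodulin genes, fell by 0.96 ± 0.32 and 1.21 ± 0.32. The X-1 call for Calm3 was lost without X-1 replicate 2 or 3 or control replicate 1 or 3. Among the genes of mTOR complex 1 and of the TSC complex that holds it back, 1 of 12 rose and 8 fell with X-1, and likewise with X-3, with medians of −0.57 and −0.54. Tsc2, a target of AMPK, fell by 1.41 ± 0.18 with X-1 and 1.06 ± 0.18 with X-3, and Tbc1d7, the third TSC subunit, fell by 1.22 ± 0.17 with X-1 and 0.57 ± 0.17 with X-3. The X-3 call for Tbc1d7 was lost without X-3 replicate 2 or 3 or control replicate 1. Rps6kb1, which encodes an S6 kinase, fell by 1.15 ± 0.17 with X-1 and 1.47 ± 0.17 with X-3 at its brightest probe, while another of its 5 probes was at 2.26 and 0.79. Rps6kb2 fell by 1.15 ± 0.17 with X-1 and 0.76 ± 0.17 with X-3 at its brightest probe, and its highest probe was at 2.81 and 3.39.

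Genes of glucose metabolism linked to AMPK were mostly higher, 5 rising and 1 falling of 9 with X-1 and 6 rising and 1 falling with X-3, with medians of 1.19 and 1.38. Under spike-in scaling 4 rose and 2 fell with X-1 and 5 rose and 1 fell with X-3, with medians of 0.20 and 0.79. Slc2a1, the glucose transporter GLUT1, rose by 3.67 ± 0.22 with X-1 (adjusted p = 2.59e-06) and by 3.37 ± 0.22 with X-3 (adjusted p = 5.34e-06). Pfkfb3, which makes an activator of glycolysis, rose by 3.18 ± 0.11 and 2.91 ± 0.11, and Gys1, the muscle-type glycogen synthase, by 2.79 ± 0.19 and 3.04 ± 0.19. In lipid metabolism 5 of 11 rose and 3 fell with X-1, and 4 rose and 2 fell with X-3. Plin2, a lipid droplet coat protein, rose by 2.34 ± 0.12 with X-1 and 1.87 ± 0.12 with X-3. Gpam, which starts glycerolipid synthesis, rose by 1.56 ± 0.13 and 1.84 ± 0.13.

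**Figure D4:**
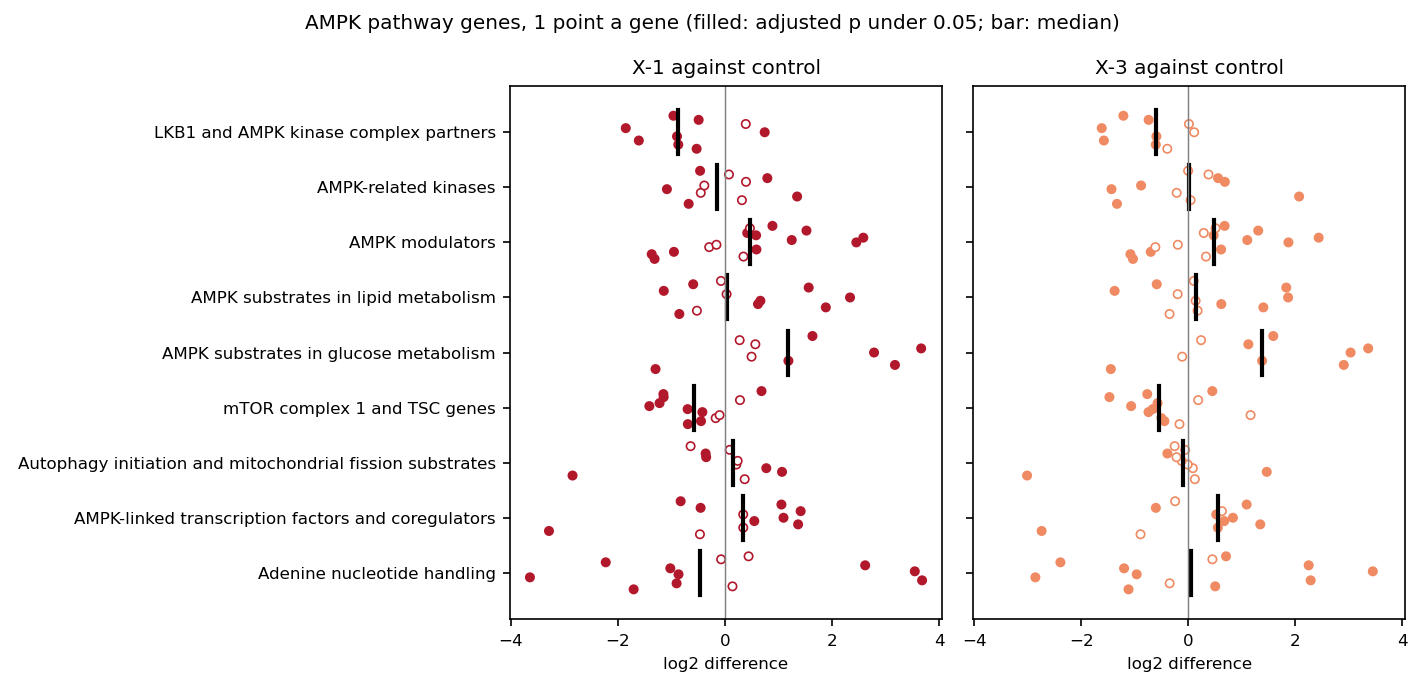
Log2 difference from control (x axis) of each measured gene of the 9 AMPK-linked lists, 1 point a gene at its brightest probe, for X-1 and X-3; filled points were called and black bars are list medians. The glucose list has the highest median, 1.19 and 1.38, and the partners of the upstream kinases the lowest, −0.87 and −0.60.

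Of the modulators of AMPK, 8 of 15 rose and 3 fell with X-1, and 7 rose and 3 fell with X-3, while under spike-in scaling 2 rose and 6 fell, and 2 rose and 5 fell. Ddit4, a stress-induced inhibitor of mTOR complex 1, rose by 2.59 ± 0.45 with X-1 and 2.44 ± 0.45 with X-3. Adipor2, an adiponectin receptor, rose by 2.46 ± 0.15 and 1.88 ± 0.15, and Ppp1r3c, a glycogen-targeting phosphatase subunit, by 1.52 ± 0.14 and 1.31 ± 0.14. Among AMPK-related kinases, 2 of 10 rose and 3 fell with X-1, and 3 rose and 3 fell with X-3. Sik1 rose by 1.35 ± 0.39 with X-1 and 2.08 ± 0.39 with X-3, and the X-1 call was lost without X-1 replicate 1 or control replicate 2 or 3. Mark3 rose by 0.79 ± 0.18 with X-1 and 0.56 ± 0.18 with X-3. Both Mark3 calls were lost under median scaling, at 0.59 (adjusted p = 0.0788) and 0.36 (adjusted p = 0.277), and the X-3 call also without control replicate 2 or 3. Sik3 fell by 1.09 ± 0.18 with X-1 and 1.43 ± 0.18 with X-3, and Nuak1 by 0.68 ± 0.22 and 1.33 ± 0.22, each at its brightest probe, while another probe of Sik3 was at 1.83 and 1.63 and another of Nuak1 at 0.76 and 0.71. The X-1 call for Nuak1 was lost without X-1 replicate 1 or 3 or control replicate 1 or 2.

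In the autophagy and mitochondrial fission list 2 of 10 rose and 3 fell with X-1, and 1 rose and 2 fell with X-3. Ulk2, a kinase that starts autophagy, fell by 2.85 ± 0.18 with X-1 and 3.01 ± 0.18 with X-3 at its brightest of 3 probes, while its highest probe was at −0.01 and −0.02. Atg13, a subunit of the same kinase complex, rose by 1.07 ± 0.11 and 1.47 ± 0.11. Rb1cc1, another subunit, rose by 0.77 ± 0.18 with X-1 at its brightest of 6 probes, which ranged from −0.76 to 2.28, and this call was lost under median scaling, at 0.57 (adjusted p = 0.094). With X-3 the Rb1cc1 difference was 0.09 ± 0.18 and not called. Mff, a fission factor, fell by 0.36 ± 0.13 with X-1 and 0.39 ± 0.13 with X-3. Both Mff calls were lost without X-1 replicate 3, X-3 replicate 2 or 3 or control replicate 2 or 3, and the X-1 call also without X-1 replicate 1 or with slide as a block (adjusted p = 0.0515). Of the transcription factors and coregulators 5 of 11 rose and 3 fell with X-1, and 6 rose and 2 fell with X-3, while under spike-in scaling 0 rose and 5 fell, and 2 rose and 4 fell. Ppargc1b, a coactivator of mitochondrial genes, fell by 3.29 ± 0.21 with X-1 and fell by 2.74 ± 0.21 with X-3, and its other 2 probes were lower as well. Foxo3, a transcription factor that AMPK phosphorylates, rose by 1.37 ± 0.24 with X-1 and 1.35 ± 0.24 with X-3, and with normexp correction these were 0.55 and 0.43 and not called. Sirt1, a deacetylase, rose by 1.41 ± 0.45 with X-1, a call that was lost without X-1 replicate 1 or control replicate 2 or 3, and its X-3 difference was 0.63 ± 0.45 and not called. Hdac5 rose by 1.05 ± 0.26 with X-1 and 1.09 ± 0.26 with X-3. Under spike-in scaling the X-1 calls of Gpam, Sirt1, Foxo3, Sik1 and Atg13 and both calls of Hdac5 and Ppp1r3c were lost, and both differences of Mark3 and the X-1 difference of Rb1cc1 turned below 0.

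The enzymes that interconvert adenine nucleotides, the ligands of the γ subunit, held some of the largest differences. Of 12 measured, 3 rose and 6 fell with X-1, and 5 rose and 5 fell with X-3. Ak4, a mitochondrial adenylate kinase, rose by 3.68 ± 0.26 with X-1 and 2.29 ± 0.26 with X-3. Ak5, another adenylate kinase, fell by 3.65 ± 0.22 with X-1, where 2 of 3 arrays were above background, and by 2.85 ± 0.22 with X-3. Adk, adenosine kinase, fell by 2.23 ± 0.19 with X-1 and fell by 2.39 ± 0.19 with X-3. Ampd1, an AMP deaminase known from muscle, was not well above background on any control array and passed the filter only through the X-1 and X-3 groups. Its adjusted p rests on control values below background, so it gives no support to the bounds beside it. It was at least 3.55-fold higher in X-1 cells (adjusted p = 2.12e-06) and at least 3.32-fold higher in X-3 cells (adjusted p = 3.32e-06) than in control cells, bounds set against the lowest signal called above background.

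Between the compounds 3 of the 99 listed genes were higher in X-1 than in X-3 cells and 2 were lower, or 5.05%, beside 9.22% of all genes, 3.07% higher and 6.15% lower. The higher ones were Ak4, by 1.39 ± 0.26 (adjusted p = 0.0168), Adipor2, by 0.58 ± 0.15 (adjusted p = 0.0485), and Plin2, by 0.47 ± 0.12 (adjusted p = 0.0496). The lower ones were Atg13, with a difference of −0.40 ± 0.11 (adjusted p = 0.048), and Ak1, with −0.59 ± 0.15 (adjusted p = 0.0423). Ak1 was named after its values were seen. Without the X-3 array of replicate 1 the count was 14, and without X-1 replicate 2 or 3 it was 0. It was 1 or 2 without X-3 replicate 2 or 3 or without any 1 control array. Calls over all 25288 probes were 2293 with all arrays, 4923 without X-3 replicate 1, and 500 and 584 without X-1 replicates 2 and 3. They were 745 and 799 without X-3 replicates 2 and 3. Without control replicates 1, 2 and 3 they were 2269, 1442 and 1266.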

How the data were processed

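Intensity values per spot came from the deposited scanner files. Per the file headers they were background-corrected by Agilent Feature Extraction, version 10.5.1.1 for replicate 1 and 10.7.3.1 for replicates 2 and 3. The submitters' processing notes give version 9.1. Per the labels' protocols, 0.5 µg of RNA was labelled with Cy3. Probe positions are mm9, per the file headers. The deposited series table holds a score per probe with mean 0, SD 1 and median −0.12 in each column. The score correlated with log2 intensity at 0.9979 or more, so its direction is that of intensity and genes were not centred. It served only as an alternative.

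Spots of 1 probe were averaged without outlier flags, 214 of 41174 gene probes with no usable spot on some array were left out, and log2 intensity was scaled to each array's 75th percentile. Probes well above background on all 3 arrays of a group were kept (25288). The test was limma 3.58.1 in R 4.3.3 (lmFit, eBayes, two-sided) with a term for group alone, fitted to the 9 arrays together, and Benjamini-Hochberg adjustment with a threshold of 0.05. It was tested on simulated data. Genes were named through RefSeq accession (24990 probes), symbol (6290) or synonym (1625), and 8055 kept the file's name. Exact permutation tests compared probe gaps. The genes named from the lists were the up to 3 with the largest called difference per list and comparison with control. A gene that this rule picks from the lipid metabolism list is counted in its list but not reported here by name. For the member with the largest called X-1 difference, the 3 most similar named genes were named. The members and lists were chosen with earlier results of these data known.

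Same-numbered arrays share a slide per the file headers. After each group's mean was subtracted, arrays of 1 number correlated across probes at 0.530, 0.294 and 0.288 for X-1 and control, at 0.173, 0.0606 and 0.196 for X-3 and control, and at −0.122, −0.229 and 0.119 for X-1 and X-3. No pair of arrays within a group was identical. Beyond the design's statement of independent experiments, nothing says how cultures were separated, so p-values measure the spread between these arrays. Alternatives were median and quantile scaling, no filter, the replicate block, leaving out each array, the deposited scores, 1 probe a gene, probe means, and, chosen after seeing the data, normexp background correction of median signals (offset 50), spike-in scaling of replicates 2 and 3 and those replicates alone.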

Additional observations from a re-analysis of the deposited data

How the results depend on the processing

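Over the member probes and their alternatives, 644 of 768 values kept their direction and their side of the threshold, 46 lost the call, 54 gained it and 24 turned their sign, and 8 of 42 results changed in neither way under any alternative run. For every change listed here the cause was not tested, unless named. The replicate block gave 10 called member probes with X-1 (4 higher, 6 lower), 11 with X-3 (5 higher, 6 lower) and 3 between the compounds (1 higher, 2 lower). Over all 25288 probes the block gave 14461, 14342 and 2216 calls. The correlations of same-numbered arrays do not all exceed 0.1 for X-3, so the pairing rests on the shared slide. The planned normexp correction of mean signals was not run, because only replicate 1 files hold that column, and median signals were used.

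Between X-1 and X-3, called member probes were 0 with median scaling, 0 without the filter and 8 with replicates 2 and 3 only. They were from 0 to 5 when 1 array was left out. Of all 25288 probes, 680 were called with median scaling and 9741 with replicates 2 and 3 only. From 500 to 4923 were called when 1 array was left out. Without the filter 653 of 40960 were called. Called list genes in that comparison were 1 with median scaling, normexp or no filter, 8 with 1 probe a gene and 10 with spike-in scaling. They were 49 with replicates 2 and 3 only, and from 0 to 14 when 1 array was left out. Over the array, 1156 of 25288 probes were called with normexp and 3808 with spike-in scaling. With 1 probe a gene 1765 of 16736 were called. With 1 probe a gene, which tests 9 member probes, 5 were called with X-1 and 5 with X-3, beside 9417 and 9255 of all 16736.

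Median scaling put the median of all probes at −0.11 with X-1 and −0.14 with X-3, and spike-in scaling at −0.85 and −0.61, so called member probes were then 2 higher and 8 lower with X-1 and 3 higher and 8 lower with X-3. Median scaling turned Cab39 probe 3 with X-1 to −0.055. Spike-in scaling turned these X-1 differences from control: Prkab1 −0.71, Stk11 −0.51, Cab39 probes 2 and 3 −0.45 and −0.70, Mark3 −0.052 and Rb1cc1 −0.059. It turned Stk11 to −0.23 and Mark3 to −0.26 with X-3, and between the compounds Prkaa2 to −0.51 and Camkk2 probes 1 and 2 to −0.049 and −0.14. Replicates 2 and 3 alone turned Cab39 probe 2 with X-3 to 0.030 and Prkaa2 between the compounds to −0.30. Averaging the probes, which mixes opposite signs, turned Prkaa1 probe 1 to 0.62 with X-1 and 0.41 with X-3, and Cab39 probe 1 with X-3 to −0.0030.

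Leaving out 1 array gave from −0.0062 to 0.30 for Cab39 probe 3 with X-1 and from −0.30 to 0.15 for Prkag2 with X-3. Between the compounds it gave from −0.19 to 0.57 for Prkaa2, from −0.17 to 0.085 for Stk11, from −0.079 to 0.50 for Camkk2 probe 1 and from −0.022 to 0.15 for Camkk2 probe 2. Signal over background limits Prkaa2, Prkag3 and Prkag2 probe 2.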
